A study of Mus musculus with 43 samples.

Results

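Brains of APP/TAU mice that had received CDDO-2P-Im were compared with brains of wild type mice by RNA sequencing, in 10 of the 43 libraries of the study. Both groups were 11 months old and held 5 libraries each, chosen by their titles. The APP/TAU line (APPV717I::TAUP301L) holds transgenes for mutant human APP and mutant human TAU, under promoters that the sources used here do not give. CDDO-2P-Im is a synthetic oleanane triterpenoid that induces NRF2. The oral dose was 30 µmol/kg, given on 3 occasions per week over 2 weeks. The wild type mice received vehicle, a mixture of DMSO, Cremophor EL and PBS. The 2 groups therefore differ in genotype and in compound at once, and in this pair of groups those effects cannot be told apart. For that reason the values of 5 libraries from vehicle-treated APP/TAU mice of the same age stand beside the main results. Nothing in the labels ties each library to its own animal, and p-values describe only how far these libraries scatter, which may be technical. The tissue is labelled brain without a region.

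NRF2 is a transcription factor that is kept low by KEAP1, an adaptor that hands it to a CUL3 ubiquitin ligase. Electrophiles such as the triterpenoids modify cysteines of KEAP1, after which NRF2 accumulates and switches on genes with antioxidant response elements. These genes encode enzymes that reduce quinones, conjugate electrophiles to glutathione, make and recycle glutathione, and bind or export iron. In the brain most of this programme is carried by astrocytes and other glia.

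Values are TPM, transcript abundances that scale each library to the same total and keep no depth, so the number of reads behind a value is unknown. The most abundant row took 24.9 to 34.5% of TPM in the wild type libraries (30.1 ± 3.72%, SD, n = 5). In the treated libraries it took 27.9 to 31.2% (29.5 ± 1.54%, SD, n = 5). This pair of groups was chosen because these shares are similar, so no test of them is given. In the vehicle-treated APP/TAU libraries the row took 22.0 ± 6.59%. The median fold of all genes against wild type was 0.18 log2 there, against -0.01 for the treated libraries. By that median, the treated against wild type comparison carried almost none of the shift. Choosing the pair by similar shares made a median near 0 likely, so it is no separate support. Folds below are differences of mean log2(TPM + 1), given as deposited and after median-ratio scaling, which divides each library by its median ratio to the geometric mean over all genes tested. The scaling factors ran from 0.816 to 1.16 in wild type and from 0.888 to 1.02 in treated libraries. Wild type library 4 had the lowest share of the abundant row and the highest factor, which puts many of its deposited values above those of the other wild type libraries. Markers of neurons, astrocytes, microglia and oligodendrocytes were all present: over 20 astrocyte markers the summed level after scaling was 3127 to 3518 TPM in wild type and 3084 to 3402 in treated libraries. Of those 20 genes 15 had a negative scaled fold. At a limma unadjusted p below 0.05, 3 were lower (3.94% of all genes) and 0 higher (3.89%).

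Few genes separated treated APP/TAU from wild type brain, and the 4 called as deposited were also the 4 called in vehicle-treated APP/TAU brain. Of 17592 genes tested, 4 were called higher as deposited (0.0227%) and 0 lower, at an adjusted p below 0.05 in limma. They were App, Thy1 and the pseudogene rows Gm15920 and Gm9855, and all 4 were also called after scaling, where Aox1, an NRF2 target, was the fifth (5 genes, 0.0284%, and 0 lower). The 2 pseudogene rows passed the minimum mean TPM only through the APP/TAU libraries, so their calls carry no weight. At an unadjusted p below 0.05 limma placed 227 genes higher (1.29%) and 153 lower (0.87%) as deposited, and 684 higher (3.89%) and 694 lower (3.94%) after scaling. In 140 genes (0.796%) every treated library lay above every wild type library after scaling, and in 158 (0.898%) every one lay below. In vehicle-treated APP/TAU libraries, which share the wild type controls, limma called 4 genes higher against wild type both as deposited and after scaling (0.0227%), and after scaling 1 lower (0.00568%), Ndufa12. Treated minus vehicle APP/TAU gave 0 genes as deposited (at an unadjusted p below 0.05, 77 higher, 0.438%, and 4642 lower, 26.4%) and 2 higher after scaling (0.0114%), Gstm1 and Ftl1.

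App, the amyloid precursor gene (ENSMUSG00000022892, chr16:84949685-85173766, minus strand, GRCm38), was at 462, 381, 454, 574 and 429 TPM in wild type libraries 1 to 5. Its treated values were 819.7, 939, 788, 881 and 1093 TPM. All 5 treated libraries stood above all wild type libraries. The fold was 0.98 ± 0.11 as deposited (SE, limma adjusted p = 0.000995) and 0.99 ± 0.08 after scaling (adjusted p = 1.96e-05). Vehicle-treated APP/TAU libraries had 955 ± 102 TPM (SD, n = 5), and after scaling treated minus vehicle was 0.14 (adjusted p = 0.63). The sources used here do not say whether transgene reads were counted in the mouse App row.

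Thy1 encodes a surface glycoprotein of neurons, and its promoter is widely used to drive transgenes in neurons. The row (ENSMUSG00000032011, chr9:44043384-44048579, plus strand) held 236, 230.1, 234, 319 and 233 TPM in wild type and 583, 739, 581, 591 and 823 TPM in treated libraries. Again no treated library overlapped the wild type range, and library 4 was the highest of the wild type group. Thy1 rose by 1.40 ± 0.12 log2 as deposited (adjusted p = 1.39e-05) and by 1.41 ± 0.10 after scaling (adjusted p = 6.98e-06, limma). In vehicle-treated APP/TAU brain it stood at 727 ± 62.7 TPM. Prnp, the prion protein gene whose promoter also serves in transgenes, was at 257 ± 46.0 TPM in wild type and 241 ± 17.2 in treated libraries, with a scaled fold of -0.06 (adjusted p = 0.762).

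Mapt, the tau gene (ENSMUSG00000018411, chr11:104231390-104332090), did not pass the test. Its wild type values were 123, 102, 115, 164 and 119 TPM, and its treated values 145, 180.3, 136, 126 and 132 TPM. Only treated library 2 exceeded every wild type library as deposited, and after scaling 4 of 5 did while 1 lay below all of them. The fold was 0.21 as deposited (limma adjusted p = 1.00) and 0.23 ± 0.08 after scaling (adjusted p = 0.538, 95% interval 0.06 to 0.40), beside 176 ± 26.5 TPM in vehicle-treated APP/TAU libraries.

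**Figure D1:**
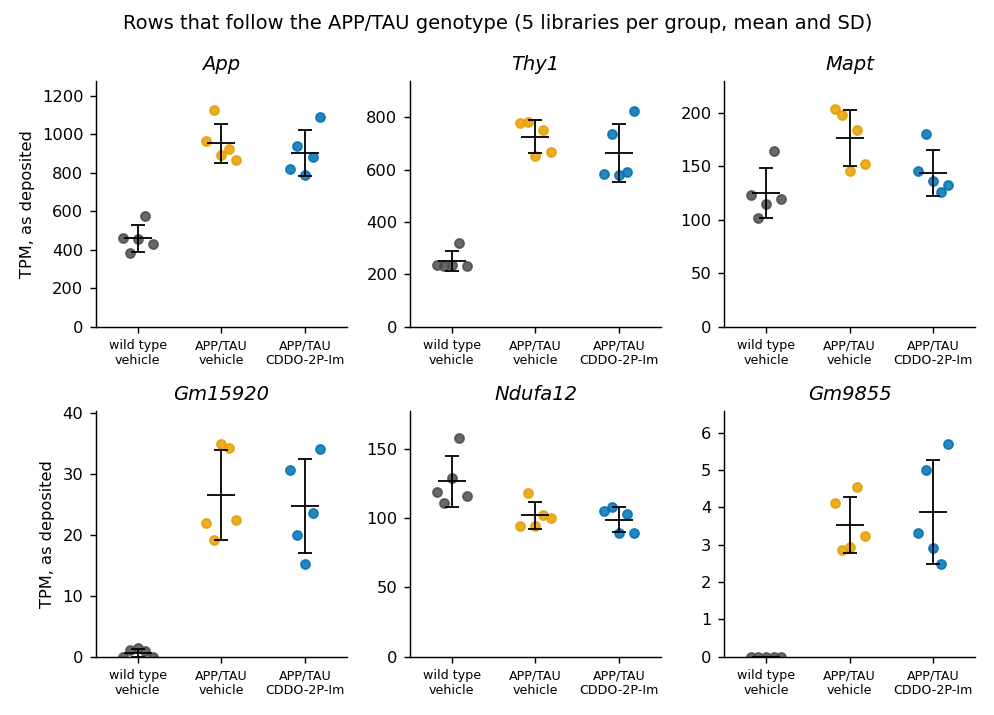
TPM as deposited on linear axes from 0, for 6 genes in wild type, vehicle-treated APP/TAU and CDDO-2P-Im-treated APP/TAU libraries. Points are libraries (5 per group), horizontal lines are means and bars are SD. App, Thy1, Gm15920 and Gm9855 are above wild type in all 10 APP/TAU libraries, Mapt overlaps, and Ndufa12 is lower in the treated libraries than in all 5 wild type libraries.

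The 2 pseudogene rows had the largest log2 folds of the called genes. Both averaged below 1 TPM in wild type (Gm9855 was at 0) and passed the minimum mean of 1 TPM only through the APP/TAU libraries, so a difference followed from the filter and their values are given as a description, with no p. They fall outside the rule for named genes, which leaves out predicted names, and were chosen after their values were seen, as were Tdg, Cfap54, Ntn4, Dusp6, Jun, Npas4, Calr, Gstm4, Gstm5 and members that are named below only to account for a small count. Gm15920 (ENSMUSG00000080893, chr5:130188395-130188796, plus strand) is a processed pseudogene, a copy of the messenger RNA of Ndufa12, and RefSeq calls it Ndufa12-ps. Ndufa12 (chr10:94198720-94221443) encodes an accessory subunit of respiratory complex I. Over the 402 bases of Gm15920 the Ndufa12 transcript of GENCODE M21 aligned without a gap and with 2 mismatches (99.5% identity). The first 200 bases of the pseudogene and the same stretch of the Ndufa12 coding sequence are shown because reads from them can be told apart at a single base, in capitals:
Ndufa12: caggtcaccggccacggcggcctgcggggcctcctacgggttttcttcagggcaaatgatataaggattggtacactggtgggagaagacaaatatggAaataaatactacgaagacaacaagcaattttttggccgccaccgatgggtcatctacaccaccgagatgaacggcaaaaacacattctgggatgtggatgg
Gm15920: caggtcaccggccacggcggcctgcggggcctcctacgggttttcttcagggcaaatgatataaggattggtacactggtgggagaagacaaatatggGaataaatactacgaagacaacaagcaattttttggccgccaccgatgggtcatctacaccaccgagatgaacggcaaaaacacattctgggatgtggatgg

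Gm15920 was listed at 0, 1.05, 1.37, 0.872 and 0 TPM in wild type and at 30.6, 19.9, 15.3, 23.5 and 34.0 TPM in treated libraries. The row is near 0 in every wild type and at 15 TPM or more in every treated library. Its fold was 3.99 ± 0.27 as deposited and 4.03 ± 0.30 after scaling, and the vehicle-treated APP/TAU libraries stood at 26.5 ± 7.39 TPM.

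The parent row was lower. Ndufa12 was at 119, 111, 129, 158 and 116 TPM in wild type and at 106, 108, 89.3, 103 and 89.3 in treated libraries. Every treated library lay below every wild type library. After scaling the difference was -0.33 ± 0.06 (limma unadjusted p = 0.000122, adjusted p = 0.153), so it was not called; in vehicle-treated APP/TAU brain it was -0.51 (adjusted p = 0.0036). The sum of the 2 rows was 127 ± 18.9 TPM in wild type and 124 ± 11.7 in treated libraries. Of that sum, 0 to 1.05% sat on the pseudogene row in wild type and 14.6 to 27.6% in treated libraries. With sequences this alike, an estimate can pass reads from either row to the other, so the value of each single row is uncertain.

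Gm9855 (ENSMUSG00000085666, chr10:42054113-42055306, minus strand), which RefSeq names Tdg-ps2, showed the same arrangement with Tdg, the gene of thymine DNA glycosylase, a base excision repair enzyme. Its 1194 bases aligned to the Tdg transcript with 9 mismatches and no gap (99.25% identity). Gm9855 was listed at 0 in all 5 wild type libraries and at 3.32, 4.99, 2.92, 2.49 and 5.69 TPM in treated libraries. Vehicle-treated APP/TAU libraries had 3.53 ± 0.750 TPM. Tdg was at 9.65, 8.10, 9.89, 12.4 and 8.63 TPM in wild type and at 7.12, 7.04, 6.44, 8.31 and 4.93 in treated libraries. On the scaled values all 5 treated libraries were below the wild type range (-0.46 ± 0.09, adjusted p = 0.138). The sum of Tdg and Gm9855 was 9.74 ± 1.67 and 10.7 ± 0.953 TPM, and the pseudogene row took 23.0 to 53.6% of it in treated libraries. Cfap54, a gene of motile cilia on the same chromosome as Ndufa12 and Tdg, was at 1.85 ± 0.712 TPM in wild type and 3.54 ± 0.833 in treated libraries, a scaled fold of 0.71 ± 0.12 (limma adjusted p = 0.10). Of 13 tested genes that neighbour Ndufa12 on chromosome 10, which include Ndufa12 itself but not Cfap54, 1 was higher (3.89% of all genes) and 1 lower (3.94%) at an unadjusted p below 0.05 after scaling, which is near those shares. The lower gene was Ndufa12 and the higher one Ntn4, a netrin of basement membranes, with a scaled fold of 0.22 ± 0.06 (limma adjusted p = 0.386).

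NRF2 target genes mostly had small positive folds in the treated APP/TAU brains, and few passed a test. The targets were listed in 3 groups, in which 12 of 17, 16 of 19 and 8 of 10 genes had a positive scaled fold. After scaling, 4 of 17 enzymes of quinone, carbonyl and conjugation chemistry were higher at an unadjusted p below 0.05 (3.89% of all genes were), as were 3 of 19 genes of the glutathione and thioredoxin systems and 2 of 10 of haem and iron handling. In order, these were Aox1, Nqo1, Gstm1 and Gstm2, then Slc7a11, Gpx2 and Srxn1, then Ftl1 and Slc40a1. No member of the 3 lists was lower at that level (3.94% of all genes were). List medians were 0.12, 0.10 and 0.08 log2, beside 0.0015 over all genes, and after adjustment over all genes only Aox1 was called. As deposited the counts were 3, 1 and 2 (1.29% of all genes), the same genes without Gstm2, Slc7a11 and Srxn1. With scaling and 1 library left out, the 3 counts ran from 3 to 5, from 2 to 5 and from 2 to 4. The second was highest without treated library 4 and the third without wild type library 3. Without wild type library 5, 1 gene of the first list was lower. In vehicle-treated APP/TAU brain the 3 medians were -0.12, -0.08 and -0.10. Other lists shifted there too, to -0.19 for cytosolic ribosomal proteins and -0.15 for nuclear genes of complexes III to V, but to 0.14 for mitochondrially encoded genes. For treated minus vehicle APP/TAU the NRF2 medians were 0.13, 0.18 and 0.18, beside 0.18, 0.14 and -0.08 for those lists. Values against vehicle are thus not particular to NRF2 targets. In tissue, fewer cells of a type and less RNA per cell cannot be told apart.

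Aox1 encodes aldehyde oxidase, which oxidises aldehydes and nitrogen heterocycles. The gene (ENSMUSG00000063558, chr1:58029931-58106413) was at 1.54, 1.16, 1.46, 1.63 and 1.55 TPM in wild type and at 2.78, 3.96, 2.75, 3.56 and 2.70 in treated libraries. The levels are low, and the groups do not overlap. The fold was 0.74 ± 0.15 as deposited (limma adjusted p = 0.479) and 0.76 ± 0.11 after scaling (adjusted p = 0.0285, 95% interval 0.52 to 1.01). That call depends on the scaling, and over all alternatives its adjusted p ran from 0.00681 to 1.00. With scaling it was also lost without any single wild type library, without vehicle library 2, without treated library 1, 2, 3 or 4, or with a replicate block. Vehicle-treated APP/TAU libraries were spread from 1.25 to 2.86 TPM (2.04 ± 0.711).

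Nqo1 encodes the quinone reductase that is the standard readout of NRF2 activity. Its values (ENSMUSG00000003849, chr8:107388225-107403206) were 4.41, 4.05, 3.07, 5.57 and 3.98 TPM in wild type and 6.62, 6.09, 6.26, 6.61 and 8.20 TPM in treated libraries. Each treated library exceeded each wild type library, and treated library 5 was the highest. The difference was 0.58 ± 0.13 as deposited and 0.60 ± 0.11 after scaling (95% interval 0.37 to 0.84, adjusted p = 0.114, limma), so it missed the threshold. Vehicle-treated APP/TAU brain had 4.52 ± 0.782 TPM, and the wild type mean was 4.22.

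Gstm1, a glutathione transferase of astrocytes, was the abundant member of this group. It stood at 139.8, 142, 128.5, 183 and 126 TPM in wild type and at 170.1, 208, 157, 198 and 191 in treated libraries. As deposited wild type library 4 overlaps the treated range, and after scaling the groups were apart, at 132 to 174 against 176 to 210.2 TPM. The scaled fold was 0.38 ± 0.07 (limma adjusted p = 0.10). Against vehicle-treated APP/TAU libraries, at 138 ± 14.4 TPM, it rose by 0.64 (adjusted p = 0.0012 after scaling), and in those libraries it stood 0.26 below wild type. Gstm2 was at 2.61 ± 0.955 and 3.54 ± 0.684 TPM (scaled fold 0.38, adjusted p = 0.611). Its neighbours Gstm4 and Gstm5 had scaled folds of -0.15 and -0.13 and did not pass the test. The Gstm genes are close copies of one another, and how reads were split between them is uncertain.

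Ferritin is the iron store of the cell, and its light chain was the second gene called against vehicle-treated APP/TAU. Ftl1 was at 232, 186, 219.7, 255 and 220.5 TPM in wild type and at 246, 280.5, 246, 265 and 257 in treated libraries. Only after scaling were the groups apart, at 220.5 to 238 against 260.3 to 282 TPM. The scaled fold was 0.24 ± 0.04 (limma adjusted p = 0.10), beside a rise of 0.41 against vehicle-treated APP/TAU (adjusted p = 0.0012). Slc40a1 encodes ferroportin, the iron exporter. It was at 1.96, 2.12, 2.31, 2.78 and 1.80 TPM in wild type and at 2.73, 3.84, 3.05, 4.03 and 2.96 in treated libraries, with a scaled fold of 0.45 ± 0.09 (adjusted p = 0.160). Haem oxygenase, Hmox1, was at 2.51 ± 0.233 and 2.89 ± 0.399 TPM (scaled fold 0.16, 95% interval -0.04 to 0.35), and after scaling 3 of 5 treated libraries exceeded the wild type range.

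**Figure D2:**
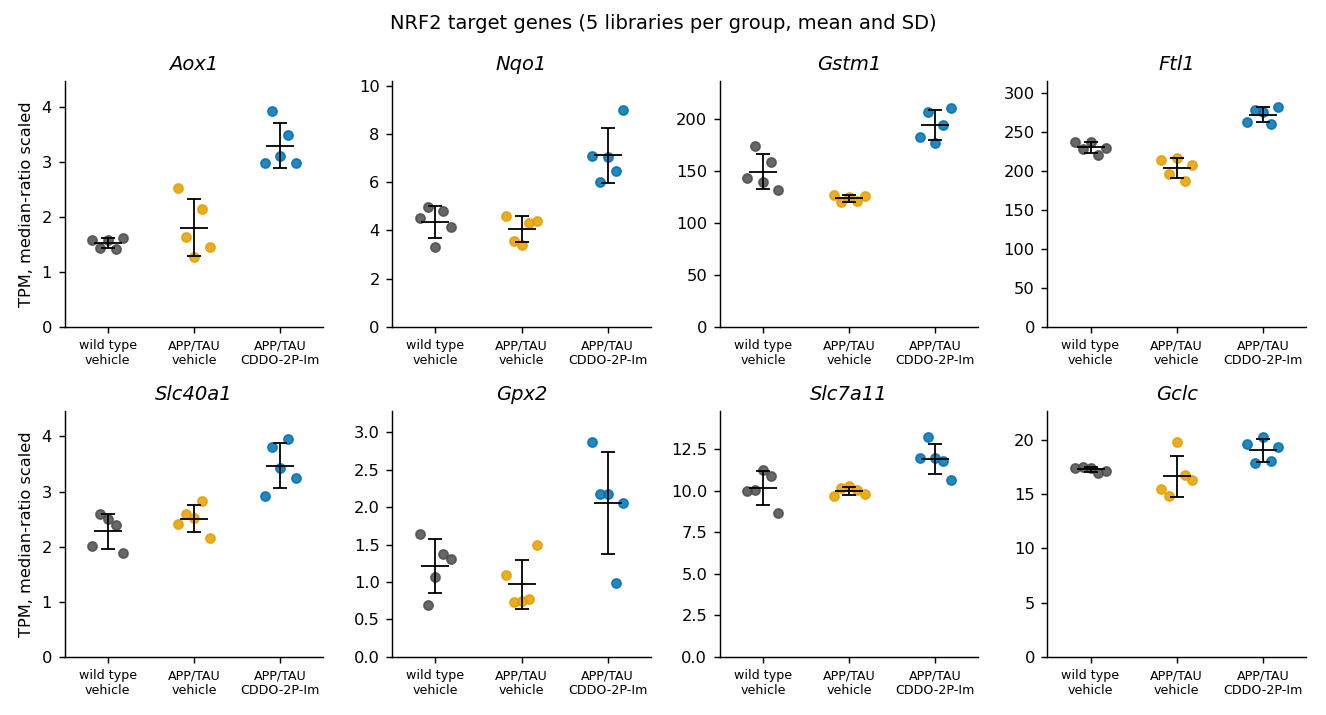
Median-ratio scaled TPM on linear axes from 0, for 8 NRF2 target genes in 3 groups of 5 libraries. Points are libraries, horizontal lines are means and bars are SD. Aox1, Nqo1, Gstm1, Ftl1, Slc40a1 and Gclc have all 5 treated libraries above all 5 wild type libraries, while Gpx2 and Slc7a11 have 4.

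Genes of glutathione supply had smaller folds. Slc7a11, the cystine carrier that feeds glutathione synthesis, was at 9.84 ± 1.80 TPM in wild type and 11.4 ± 1.39 in treated libraries, a scaled fold of 0.21 ± 0.06 (limma adjusted p = 0.456). Gpx2, a glutathione peroxidase, was at 1.20 ± 0.438 and 1.94 ± 0.610 TPM (scaled fold 0.45, adjusted p = 0.576). The subunits of glutamate cysteine ligase, the rate-limiting enzyme of glutathione synthesis, had scaled folds of 0.13 (Gclc) and 0.15 (Gclm). For Gclc the treated libraries lay at 17.6 to 18.4 TPM and the wild type libraries at 14.3 to 19.6, apart from each other only after scaling. Sulfiredoxin, Srxn1, repairs oxidised peroxiredoxins and had a scaled fold of 0.14, and thioredoxin reductase, Txnrd1, had 0.13. None of these 6 genes passed the adjusted test.

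The promoters of these genes were searched for the core of the antioxidant response element, TGACNNNGC on either strand, in the window from 250 bases before to 50 bases after each RefSeq start on GRCm38.p6. The core was present in 12.4% of 32851 windows of all genes, in 16.4% of 10753 tested genes with a window, and in 11 of 35 NRF2 targets with one (31.4%). In the glutathione and thioredoxin list 8 of 15 held it, and in the other lists 2 of 14 and 1 of 6. No match was found in the windows of Aox1, Nqo1, Gstm1 or Ftl1, but bases outside the windows were not searched. The windows of Gclm and Srxn1, which hold a match, and of Nqo1, which holds none, are shown 5′ to 3′ along the gene, with the match in capitals. They span chr3:122245307-122245606 (plus strand), chr2:152105274-152105573 (plus strand) and chr8:107403156-107403455 (minus strand):
Gclm: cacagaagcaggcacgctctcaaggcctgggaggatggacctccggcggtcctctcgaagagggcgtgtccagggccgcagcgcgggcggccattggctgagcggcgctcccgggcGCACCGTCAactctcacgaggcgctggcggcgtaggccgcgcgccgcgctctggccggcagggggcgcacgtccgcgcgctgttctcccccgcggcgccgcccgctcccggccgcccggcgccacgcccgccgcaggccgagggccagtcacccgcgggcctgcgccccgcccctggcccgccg
Srxn1: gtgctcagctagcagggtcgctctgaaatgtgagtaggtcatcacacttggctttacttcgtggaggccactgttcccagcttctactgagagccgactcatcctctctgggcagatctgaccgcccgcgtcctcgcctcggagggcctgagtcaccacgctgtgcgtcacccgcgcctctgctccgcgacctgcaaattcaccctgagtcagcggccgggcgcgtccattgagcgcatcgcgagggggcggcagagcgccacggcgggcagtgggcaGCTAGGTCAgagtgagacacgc
Nqo1: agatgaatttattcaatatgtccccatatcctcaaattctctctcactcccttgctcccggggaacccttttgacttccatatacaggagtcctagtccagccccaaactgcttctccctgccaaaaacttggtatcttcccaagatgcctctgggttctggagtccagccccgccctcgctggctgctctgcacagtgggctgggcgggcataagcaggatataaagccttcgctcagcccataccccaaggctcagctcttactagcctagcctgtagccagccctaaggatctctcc
In Gclm the match starts at base 117 and in Srxn1 at base 279 of the window, and both read as the core on the opposite strand. A match describes letters and not a bound site.

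Among genes that control NRF2 itself none was called. Nfe2l2, which encodes NRF2, was at 9.41 ± 1.66 TPM in wild type and 8.42 ± 0.286 in treated libraries (scaled fold -0.12, 95% interval -0.27 to 0.03). Keap1 was at 17.8 ± 2.14 and 18.9 ± 1.08 TPM (scaled fold 0.10). Of 14 regulators tested, 1 was higher and 3 were lower at an unadjusted p below 0.05 after scaling (3.89 and 3.94% of all genes), and none as deposited. The higher gene was Bach2, a repressor that binds the same DNA elements, with a scaled fold of 0.14. The 3 lower genes encode parts of ubiquitin ligases that act on NRF2. Fbxw11 was at 51.3 ± 7.28 and 45.6 ± 2.54 TPM, and after scaling all 5 treated libraries were below wild type (-0.14 ± 0.03, limma adjusted p = 0.261). Btrc, its close relative, had -0.18 and the scaffold Cul3 -0.10. In vehicle-treated APP/TAU libraries Fbxw11 differed by -0.11.

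Immediate early genes, which neurons switch on within minutes of activity, had mostly lower levels in the treated brains, though none was called. Of 23 tested, 10 were lower at an unadjusted p below 0.05 after scaling (3.94% of all genes) and 9 as deposited (0.87%), with 0 higher. The list median was -0.23 after scaling, with no limma call after adjustment over all genes. Leaving out wild type library 1 reduced the count from 10 to 6, and over all single libraries left out it ran from 6 to 12. In vehicle-treated APP/TAU libraries 0 of the 23 were lower against wild type at that level (7.13% of all genes) and the median was 0.04.

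Egr1, a zinc finger transcription factor, was at 75.1, 51.1, 63.3, 68.2 and 63.9 TPM in wild type and at 50.3, 45.2, 47.4, 55.9 and 50.1 in treated libraries. As deposited only treated library 4 reached into the wild type range, and after scaling none did. The scaled fold was -0.34 ± 0.09 (limma adjusted p = 0.363), and vehicle-treated APP/TAU libraries had 77.0 ± 13.8 TPM. Arc, which controls AMPA receptor removal at synapses, was at 85.1, 47.9, 58.8, 70.4 and 73.9 TPM against 46.9, 44.4, 52.8, 51.2 and 49.9 (-0.41 ± 0.12 after scaling, adjusted p = 0.434). Wild type library 2 was the lowest of its group for both genes. Fosb, a partner of JUN proteins, was at 5.47, 4.96, 4.48, 7.20 and 8.35 TPM against 3.98, 3.40, 3.53, 4.32 and 4.66 (-0.48 ± 0.12, adjusted p = 0.355).

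In 3 of the 23 genes all 5 treated libraries lay below all wild type libraries after scaling (0.898% of all genes), namely Egr1, Homer1 and Dusp6. Homer1, a scaffold of metabotropic glutamate receptors, had a scaled fold of -0.25 and Dusp6, a phosphatase that turns off ERK, one of -0.33 ± 0.08 (adjusted p = 0.306, limma). Other members lay nearer to wild type: Fos had a scaled fold of -0.08, Npas4 of -0.05 and Jun of 0.01. Summed markers of hippocampal and cortical neurons were at 402 to 485 TPM after scaling in wild type and 386 to 435 in treated libraries, and presynaptic genes at 3860 to 4102 and 3836 to 3948. Summed interneuron and GABA synthesis markers did not overlap, at 943.5 to 975.1 TPM in wild type and 873.2 to 927.1 in treated libraries. In vehicle-treated APP/TAU libraries that sum was 857.3 to 935.9 TPM. Of its 15 genes 1 was lower in treated libraries at an unadjusted p below 0.05 after scaling (3.94% of all genes). At that level 0 were higher (3.89%), so the counts were near the shares of all genes. Of 11 striatal neuron genes 4 were lower at an unadjusted p below 0.05 after scaling (3.94% of all genes), with a list median of -0.14. Of the same 11 genes 1 was lower at that level in vehicle-treated APP/TAU libraries (7.13% of all genes), with a median of -0.21. Among them the dopamine receptor Drd1 was at 3.01 ± 0.927 and 2.07 ± 0.231 TPM and Ppp1r1b, which encodes DARPP-32, at 40.8 ± 6.47 and 34.0 ± 3.87, while Pde10a, a phosphodiesterase, had a scaled fold of -0.17. Left-out single libraries moved the striatal count from 2 (without wild type library 3 or treated library 5) to 6 (without wild type library 2). The part of tissue composition in the lower immediate early genes was not tested, and the sources used here do not give the time of day of sampling.

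Chaperones of the endoplasmic reticulum also had lower levels, again without a call. Of 23 genes of the unfolded protein and integrated stress responses, 10 were lower (3.94% of all genes) and 1 was higher (3.89%) at an unadjusted p below 0.05 after scaling. As deposited 5 were lower (0.87% of all genes; Hspa5, Sdf2l1, Creld2, Manf and Xbp1). The scaled median was -0.14. Hspa5 encodes BiP, the main chaperone and stress sensor of that compartment. It was at 105, 71.1, 90.8, 109 and 132 TPM in wild type and at 79.4, 92.6, 62.8, 68.9 and 57.3 in treated libraries. The groups overlap through treated library 2 and wild type library 2, and after scaling 4 of 5 treated libraries were below wild type. The scaled fold was -0.46 ± 0.13 (limma adjusted p = 0.406). Creld2 and Manf, secreted factors induced by the same stress, had scaled folds of -0.50 and -0.44 and Sdf2l1 of -0.46. Calreticulin, Calr, which folds glycoproteins, was at 139 ± 32.1 and 115 ± 18.9 TPM (-0.24). The higher member was Slc7a11, also an NRF2 target. None was called after adjustment. Vehicle-treated APP/TAU libraries, compared with the same wild type libraries, had a list median of -0.15 and 4 lower members at that level (Manf, Pdia4, Dnajb9 and Dnajc3; 7.13% of all genes), and Hspa5 there differed by -0.25.

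Heat shock genes were described in the same way. After scaling 8 of 20 were lower (3.94% of all genes) and 1 was higher (3.89%) at an unadjusted p below 0.05, but as deposited 2 were lower (0.87%), Hspa1b and Dnajb5. The scaled median was -0.13. Against the same wild type libraries, 7 of the 20 were lower in vehicle-treated APP/TAU brain (7.13% of all genes), with a median of -0.10. Leaving out wild type library 5 reduced the 8 to 5. Dnajb5, a co-chaperone, was at 24.9 ± 5.63 TPM in wild type and 18.3 ± 1.70 in treated libraries, with all 5 treated libraries below wild type after scaling (-0.38 ± 0.09, limma adjusted p = 0.311). Dnaja1 had a scaled fold of -0.16. Hspa1b, an inducible HSP70, was at 15.0, 4.81, 4.48, 5.04 and 10.4 TPM in wild type, with a scaled fold of -0.69, and wild type libraries 1 and 5 were the highest of that group. The higher gene was Cirbp, an RNA-binding protein induced by cooling, at 26.5 ± 5.40 and 33.9 ± 6.25 TPM (scaled fold 0.36, adjusted p = 0.631).

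**Figure D3:**
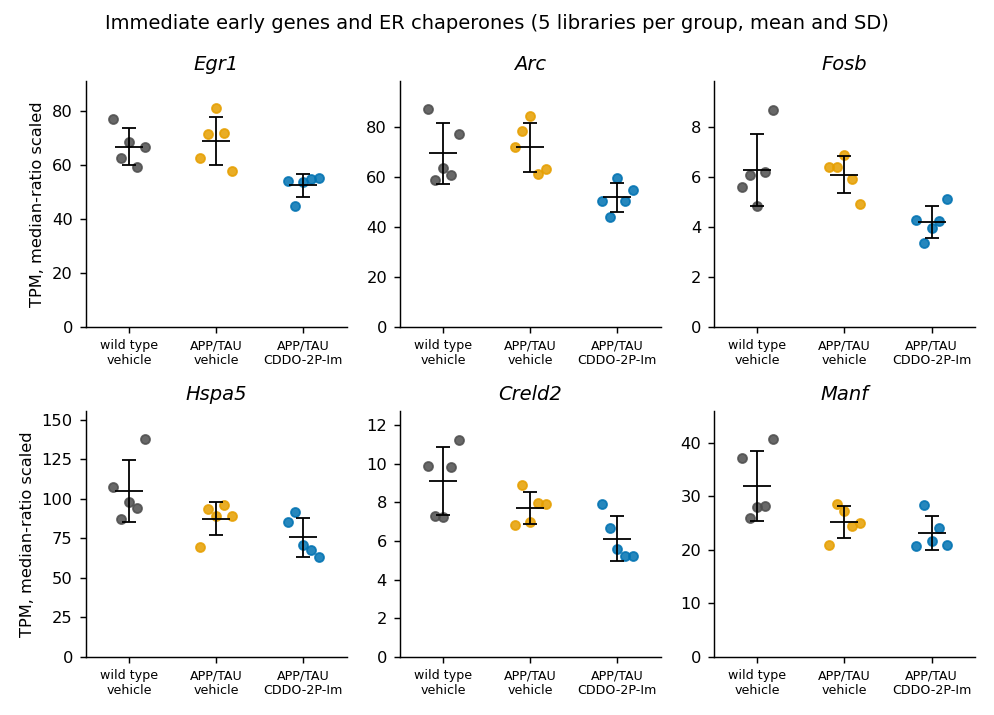
Median-ratio scaled TPM on linear axes from 0, for the immediate early genes Egr1, Arc and Fosb and the endoplasmic reticulum genes Hspa5, Creld2 and Manf. Points are 5 libraries per group, horizontal lines are means and bars are SD. Treated libraries are the lowest group for all 6 genes, and for the immediate early genes vehicle-treated APP/TAU libraries lie near wild type.

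Among microglial and astrocytic genes that mark plaque reactions none was called. Of 26 genes of plaque-associated microglia, 1 was higher (3.89% of all genes) and 0 lower (3.94%) at an unadjusted p below 0.05 after scaling (median 0.01), a share near that of all genes; the gene was Csf1, a growth factor of microglia (0.16, adjusted p = 0.636). None of 12 complement and phagocytic receptor genes and none of 16 reactive astrocyte genes passed in either direction. Trem2, a lipid receptor of microglia, was at 4.79, 4.94, 5.29, 7.50 and 5.17 TPM in wild type and at 5.41, 5.41, 5.13, 7.05 and 5.89 in treated libraries. The ranges overlap almost fully (scaled fold 0.07, 95% interval -0.17 to 0.32). Gfap, the intermediate filament of reactive astrocytes, was at 88.1 ± 19.1 and 99.1 ± 16.5 TPM (scaled fold 0.19, 95% interval -0.18 to 0.56). Tyrobp, the signalling partner of Trem2, was listed at 0 in all 5 treated and in 3 of 5 wild type libraries, and such zeros can be failed estimates. Summed homeostatic microglia markers were at 401 to 509.5 TPM after scaling in wild type and 420.0 to 474.5 in treated libraries.

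**Figure D4:**
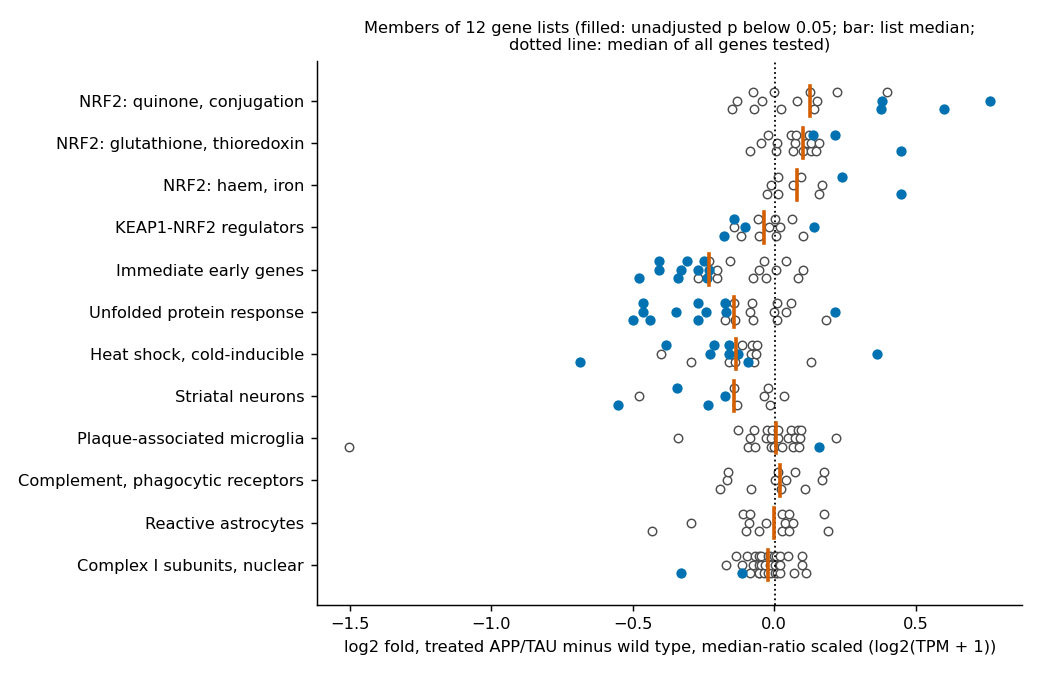
Scaled log2 fold of treated APP/TAU minus wild type for each tested member of 12 gene lists. Each circle is a gene (filled where the unadjusted p is below 0.05), the orange bar is the list median and the dotted line the median of all 17592 genes. The 3 NRF2 target lists lie to the right of the line, with medians of 0.08 to 0.12, the immediate early genes to the left at -0.23, and the glial lists on the line.

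The same contrast can be formed in AppNLGF mice (AppNL-G-F/NL-G-F), which carry familial mutations in their own App gene, with 13 treated and 4 wild type libraries of 6 months and 4 weeks of dosing. The 2 contrasts share no library, and folds were formed inside each table, but age, dosing time, genotype and table all differ between them and cannot be told apart. Of 16418 genes tested in both, the contrasts differed in 4 as deposited (0.0244%) and 24 after scaling (0.146%) at a limma adjusted p below 0.05. App and Thy1 were among them: the scaled fold was 0.99 against -0.05 for App (difference 1.04 ± 0.08, adjusted p = 8.95e-13) and 1.41 against 0.03 for Thy1 (1.38 ± 0.09, adjusted p = 6.22e-14).

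Many of the rest were glial genes. Trem2 differed by -1.29 ± 0.21 after scaling (adjusted p = 0.000518), from a fold of 0.07 in APP/TAU and 1.37 in AppNLGF brain, and it was also called as deposited (adjusted p = 0.0318). Gfap had folds of 0.19 and 1.54 (adjusted p = 0.00229), C4b, a complement component, 0.18 and 1.30 (adjusted p = 0.0120), and Cd68, a lysosomal protein of phagocytes, -0.07 and 1.18 (adjusted p = 0.00755, limma in each case). Of 25 plaque-associated microglia genes tested in both, 17 were lower in the difference at an unadjusted p below 0.05 after scaling. The share of all genes was 3.58%, and 6 of the 25 were called (Cd52, Cd68, Ctsd, Ctsz, Lyz2 and Trem2). Homeostatic microglia genes shifted the same way, with 8 of 18 lower and 1 called (Fcgr3). Their medians were 0.03 in APP/TAU and 0.30 in AppNLGF brain. Some called genes are members of more than 1 list. Complement and phagocytic receptors gave 10 of 12 with 5 called (C1qc, C4b, Fcer1g, Fcgr2b and Fcgr3), and reactive astrocytes 9 of 15 with 3 called (C4b, Gfap and Osmr). Lysosome and autophagy genes gave 13 of 31 with 5 called (Ctsd, Ctss, Ctsz, Grn and Man2b1). Lists of other cells also differed without a call: 10 of 20 endothelial genes were lower in the difference at an unadjusted p below 0.05 (medians of -0.04 in APP/TAU and 0.23 in AppNLGF brain), and 4 of 5 haemoglobin and blood cell genes were higher (2.97% of all genes; medians of 0.66 and -1.21). Their part in the glial differences was not tested.

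For the NRF2 targets no difference between the models was called. Aox1 had a scaled fold of 0.76 in APP/TAU and 0.79 in AppNLGF brain (difference -0.03 ± 0.18), Nqo1 0.60 and 0.38 (0.22 ± 0.19), Gstm1 0.38 and 0.56 (-0.18 ± 0.12), Slc40a1 0.45 and 0.41 (0.04 ± 0.13) and Ftl1 0.24 and 0.38 (-0.14 ± 0.07). With standard errors of this size, small differences between the models would not have been detected. Hmox1 had 0.16 and 0.48 and was the 1 gene of the 3 lists with an unadjusted p below 0.05 for the difference (adjusted p = 0.762). The lists held 16, 17 and 10 genes tested in both. Of all genes 3.58% were lower and 2.97% higher at that level. The 23 immediate early genes had medians of -0.23 in APP/TAU and -0.21 in AppNLGF brain. At that level 2 of them were higher in the difference and 0 lower. Single members varied: Egr1 had -0.34 in both and Fosb -0.48 and -0.35. Arc had -0.41 and 0.04, Homer1 -0.25 and 0.03, and Fos -0.08 and -0.55. Hspa5 had -0.46 and 0.05 (difference -0.51 ± 0.15, adjusted p = 0.264), and 9 of 23 genes of its list were lower in the difference at an unadjusted p below 0.05 (3.58% of all genes).

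**Figure D5:**
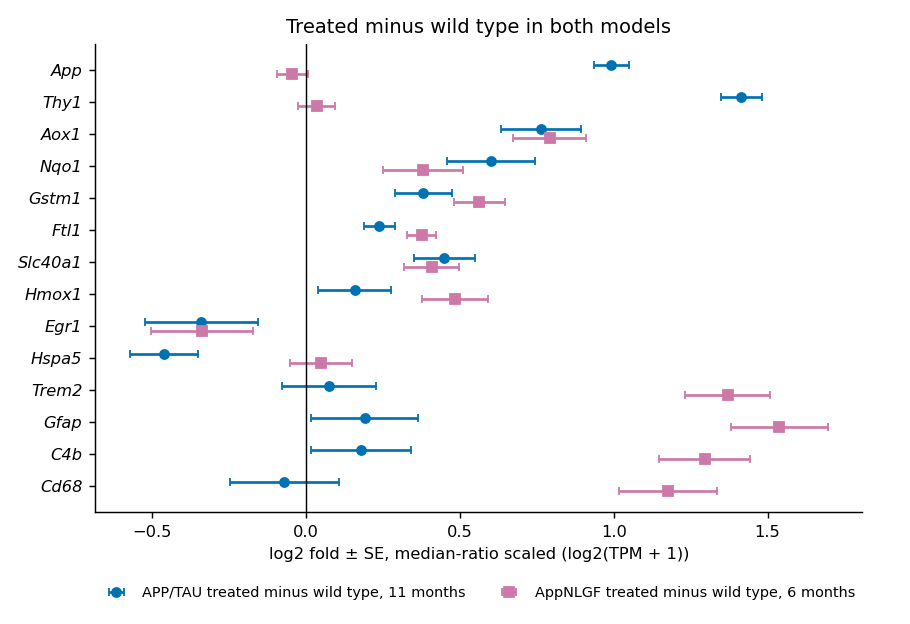
Scaled log2 fold with SE of treated minus wild type for 14 genes, in APP/TAU mice (circles, 5 against 5 libraries) and AppNLGF mice (squares, 13 against 4 libraries). App and Thy1 are high in APP/TAU alone, the NRF2 targets Aox1, Nqo1, Gstm1, Ftl1 and Slc40a1 are above 0 in both, and Trem2, Gfap, C4b and Cd68 are above 1 log2 in AppNLGF and near 0 in APP/TAU.

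Genes that process amyloid precursor and tau had small folds. Of 21 genes of App, its homologues and secretases, App was higher (3.89% of all genes) and 3 were lower (3.94%) at an unadjusted p below 0.05 after scaling. Adam10, the alpha-secretase, was at 30.6 ± 3.48 TPM in wild type and 27.8 ± 2.93 in treated libraries (-0.12 ± 0.04, limma adjusted p = 0.464). Aph1b and Aph1c, alternative subunits of gamma-secretase, had scaled folds of -0.13 and -0.30. Of 23 genes of tau, its kinases and partners, Mapt was higher and 2 were lower at that level, Map2 (-0.07) and Fkbp5 (-0.20), near the shares of all genes. Genes of respiratory complexes, cytosolic ribosomes and myelin had medians within 0.04 log2 of 0 after scaling, with 0 of 30 ribosomal protein genes and 0 of 19 myelin genes past an unadjusted p of 0.05.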

How the data were processed

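Total RNA of mouse brain was sequenced. Salmon and GRCm38 (mm10) are named in the submitters' processing notes; the sources used here give no version, annotation or reference sequences. TPM per gene were deposited by the authors with 1 column per library and no pooling. The table has 55804 rows, of which 51327 matched a symbol. TPM keep no depth, so no counting interval can be given. Libraries were grouped by title.

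Every gene whose TPM averaged 1 or more over 15 libraries was tested on log2(TPM + 1) with limma 3.58.1 (R 4.3.3; 1 mean per group, trended moderation, two-sided, Benjamini-Hochberg over 17592 genes), as deposited and with median-ratio scaling. The fit was tested on simulated data. Effects were compared with AppNLGF mice in 1 fit of all 43 libraries. Alternatives were other scalings, pseudocounts, minima, moderation and weights, a replicate block, 2 groups only and leaving out each library.

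The named genes are called genes with symbols that are not predicted names, up to 4 members of each of 46 lists with the smallest p, and a set of NRF2, amyloid and tau genes. Some genes that the rule names are not reported here. Members and lists were chosen with earlier results of these data known. Promoters and names are from RefSeq GRCm38.p6, positions and transcripts from GENCODE M21, aligned with Biopython 1.88.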

Additional observations from a re-analysis of the deposited data

Results flagged for a closer look

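The difference in fold between treated APP/TAU and treated AppNLGF mice, each against its own wild type, passed the test of that difference (limma, as deposited) for App at 1.09 log2, Thy1 at 1.44 and Trem2 at -1.25. Gm15920 differed by 3.78, which is given as a description. In the APP/TAU table that row passed the minimum mean TPM only through the APP/TAU libraries.

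Single libraries stood apart from the other 4 of their group, as deposited. In wild type library 4 this was so for Thy1 at 319 TPM (the others at 230.1 to 236), Gstm1 at 183 (126 to 142), Gstm5 at 126 (78.7 to 90.3), Trem2 at 7.50 (4.79 to 5.29), Gfap at 122 (75.0 to 85.3) and Csf1 at 12.5 (8.51 to 9.00). That library has the lowest share of the most abundant row among the wild type libraries, 24.9%, and a scaling factor of 1.16. Wild type library 2 was low for Ppp1r1b at 29.7 TPM (42.3 to 46.5), and treated library 5 was high for Nqo1 at 8.20 TPM (6.09 to 6.62). The gap to the nearest library exceeded Dixon's critical value in each of these groups, which chance gives in about 1 group in 20. The flags in wild type library 4 share that library and are not independent.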

How the results depend on the processing

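App and Thy1 were called in all 42 alternatives. Gm15920 and Gm9855 were among the calls wherever they were tested, but a difference in them followed from the filter, so those calls add no support. The count of genes called higher was 4 as deposited, and 7 with quantile normalization or with TPM rescaled without mitochondrial and the 20 most abundant genes. With 1 library left out it ran from 4 to 7 (7 without treated library 5, with scaling), and with a minimum mean TPM of 5 it was 3. The count of genes called lower was 0, but 2 with library weights, and 0 to 1 with 1 library left out (1 without treated library 3, with scaling). Genes called for treated minus vehicle APP/TAU went from 0 to 2 with median-ratio scaling, and those for the difference between models from 4 to 24. Without the vehicle-treated APP/TAU and AppNLGF libraries the difference between models gave 3, as deposited. The replicate numbers did not pair the libraries (same-number correlations from -0.029 to 0.0752, own number best in 3 of 5), and a replicate block gave 4 genes higher and 0 lower, as deposited and with scaling, where Aox1 was lost. The difference in the share of the most abundant row was -0.59 percentage points and turned to 0.507 without wild type library 2, with ranges from -1.89 to 0.507 over single libraries left out. Signs reversed in genes that were not called: Prnp 0.0215 without wild type library 4 (-0.133 to 0.0215 over single libraries left out), Trem2 -0.0034 without treated library 4 (-0.0034 to 0.159), and Cd68 0.0046 without treated library 5 (0.00072 with scaling, range -0.203 to 0.0046). The cause of these changes was not tested. Depth is unknown, and 5 libraries per group limit what can be called. The fit of only the 2 groups with median-ratio scaling, which called 5 genes, was chosen after seeing the data.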

Other observations

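A row without a symbol in the gene names used here, ENSMUSG00002076470, was chosen after its values were seen. It was listed at 0 in all 5 wild type and all 5 vehicle-treated APP/TAU libraries of 11 months, and at 79.6, 39.3, 108, 57.8 and 0 TPM in treated libraries 1 to 5. In the AppNLGF table it was above 0 in 2 of 13 treated, 1 of 11 vehicle and 0 of 4 wild type libraries.

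Haemoglobin genes varied widely between libraries. Hbb-bs, a beta globin, was at 10.9, 17.8, 11.4, 12.6 and 5.07 TPM in wild type and at 30.5, 39.2, 74.3, 5.70 and 8.35 in treated libraries, a scaled fold of 0.96 with a 95% interval from -0.64 to 2.56.

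Single genes lay below all wild type libraries in all 5 treated libraries after scaling without passing the adjusted test. In all, 158 of 17592 genes did so (0.898%), and the genes given here are examples. Acta2, smooth muscle actin of arterioles, was at 3.83 ± 0.799 TPM in wild type and 2.75 ± 0.363 in treated libraries (-0.34, limma adjusted p = 0.268). Slc30a3, which loads zinc into synaptic vesicles, was at 22.0 ± 4.63 and 17.6 ± 1.21 TPM (-0.27, adjusted p = 0.490). Slc1a2, the main glutamate transporter of astrocytes, was at 378 ± 47.8 and 344 ± 20.2 TPM (-0.11, adjusted p = 0.547).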
